A study of Mus musculus with 12 samples.

Results

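The G1 cyclins Ccnd1, Ccnd2, Ccnd3, Ccne1 and Ccne2, the Cip/Kip inhibitors Cdkn1a, Cdkn1b and Cdkn1c, and the Myc genes Myc and Mycn were followed by poly(A) RNA-Seq as mouse embryonic stem cells (ESCs) entered the mesendoderm. These 10 genes were taken by name from the deposited transcript annotation, as loci whose transcripts matched an Ensembl transcript of that name exactly or shared a splice junction with it. Each name had 1 locus, no locus carried a second gene name, and all 10 were among the 17911 loci tested. The libraries came from 3 groups of 4, with the replicate numbers 1, 2, 5 and 6 in each, and all of them derived from 1 reporter ESC line on a C57BL/6 background in which EGFP sits at the start site of the endogenous Eomes gene. ESCs were taken undifferentiated at day 0, from cultures kept on mouse embryonic fibroblast feeders in serum medium with leukemia inhibitory factor. Eo+ and Eo- cells were the EGFP-positive and EGFP-negative fractions sorted by flow cytometry from hanging-drop embryoid bodies at day 3. The sorted fractions therefore differ from ESCs in time, culture format and sorting as well as in fate, which cannot be told apart here. The study refers to 4 differentiation sets, but the labels do not say which cultures were independent, so p-values measure the spread between these libraries.

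Passage from G1 into S phase is driven by cyclins bound to cyclin-dependent kinases (Cdks). D cyclins, made in response to mitogens, activate Cdk4 and Cdk6, and E cyclins activate Cdk2. Both kinase activities phosphorylate the retinoblastoma protein and its relatives, the pocket proteins, which otherwise hold back the E2F factors that transcribe replication genes. The Cip/Kip proteins p21, p27 and p57, encoded by Cdkn1a, Cdkn1b and Cdkn1c, inhibit cyclin E–Cdk2 complexes, while the INK4 proteins inhibit Cdk4 and Cdk6. Myc and N-Myc pair with Max to drive growth and ribosome production. Mouse ESCs are known for a short G1 phase and abundant cyclin E.

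RefSeq promoter windows of the GRCm38.p6 assembly, from 250 bases before to 50 bases after a start site, were matched for 5 of the 10 genes (Ccnd3, Ccne1, Cdkn1a, Cdkn1b and Mycn). The windows of Ccne1, Cdkn1a and Mycn are shown because these genes fell in every comparison described below, and that of Cdkn1b because it rose in both sorted fractions against ESCs. Each is written 5′ to 3′ on the strand of its gene, and capitals mark matches to the motifs searched on both strands.
Cdkn1a promoter, chr17:29090729-29091028, plus strand: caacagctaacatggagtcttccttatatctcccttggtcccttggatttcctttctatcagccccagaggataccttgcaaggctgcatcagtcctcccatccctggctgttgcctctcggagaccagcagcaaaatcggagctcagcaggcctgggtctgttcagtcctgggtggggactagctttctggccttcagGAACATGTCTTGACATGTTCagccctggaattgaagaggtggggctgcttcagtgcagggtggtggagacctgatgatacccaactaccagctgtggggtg
Mycn promoter, chr12:12941787-12942086, minus strand: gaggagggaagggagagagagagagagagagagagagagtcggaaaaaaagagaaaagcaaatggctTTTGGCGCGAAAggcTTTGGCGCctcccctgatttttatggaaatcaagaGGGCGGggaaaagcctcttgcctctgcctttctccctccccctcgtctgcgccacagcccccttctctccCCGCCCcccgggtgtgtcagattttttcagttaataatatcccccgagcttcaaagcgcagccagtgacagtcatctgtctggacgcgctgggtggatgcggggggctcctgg
Ccne1 promoter, chr7:38107441-38107740, minus strand: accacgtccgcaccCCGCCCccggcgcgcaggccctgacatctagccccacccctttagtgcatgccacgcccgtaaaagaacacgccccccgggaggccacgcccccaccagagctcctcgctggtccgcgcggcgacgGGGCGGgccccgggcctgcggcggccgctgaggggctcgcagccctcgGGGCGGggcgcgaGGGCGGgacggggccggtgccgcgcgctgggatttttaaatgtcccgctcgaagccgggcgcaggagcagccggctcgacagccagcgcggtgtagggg
Cdkn1b promoter, chr6:134920151-134920450, plus strand: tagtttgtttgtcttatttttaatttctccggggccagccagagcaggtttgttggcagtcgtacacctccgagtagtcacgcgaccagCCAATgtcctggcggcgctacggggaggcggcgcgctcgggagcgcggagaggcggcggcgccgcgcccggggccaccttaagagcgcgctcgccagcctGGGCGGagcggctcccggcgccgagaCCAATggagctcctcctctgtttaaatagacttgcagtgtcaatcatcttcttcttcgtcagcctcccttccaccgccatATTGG
The Cdkn1a window, the upstream of 2 such windows of this gene, holds a p53 motif of 2 half-sites in a row, with both core motifs exact and at most 1 letter off elsewhere, starting at position -51 from the start site. This definition was chosen after the window had been seen, and 18 of 32851 promoters (0.0548%) held such a match. The Mycn window holds 3 E2F matches (TTTCCCGC, TTTCGCGC, TTTGCCGC or TTTGGCGC, found in 2.26% of promoters) at positions -183, -179 and -168, of which the first and second overlap, and 2 GC boxes. The Ccne1 window, at 76% G and C the richest of the 4 shown, has 4 GC boxes (GGGCGG, in 35.7% of promoters). The Cdkn1b window has 3 CCAAT boxes (CCAAT, in 37.4% of promoters) and 1 GC box. No match to the E-box bound by Myc and Max (CACGTG, in 7.15% of promoters) or to TATAAA (in 13.6%) lies in the windows of these 5 genes. These matches describe letters only.

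Across the 10 genes, 8 were called in Eo+ vs ESC (limma adjusted p of at most 0.05, Benjamini-Hochberg over all 17911 loci), 4 higher and 4 lower, while 71.9% of all loci passed, 35.8% higher and 36.1% lower. In Eo- vs ESC, 7 were called, 1 higher and 6 lower, against 62.2% of all loci, 30.9% higher and 31.3% lower. In Eo+ vs Eo-, 7 were called, 4 higher and 3 lower, against 47.7% of all loci, 23.0% higher and 24.7% lower. Libraries of the groups did not overlap at 5, 7 and 6 of the genes in these comparisons, and at 64.5%, 55.8% and 45.9% of all loci. With a change of at least 2-fold required as well, 4, 2 and 1 of the genes were left, and 38.1%, 28.3% and 21.1% of all loci. Ccnd2, Ccne1, Cdkn1a and Mycn, 4 of 10, were called in all 3 comparisons, as were 26.7% of all loci. In Eo- vs ESC the members leaned to lower calls, and no result about the set is read from these shares. Eo+ vs ESC and Eo- vs ESC share the ESC libraries, so the values of both are given side by side and are not independent.

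**Figure D1:**
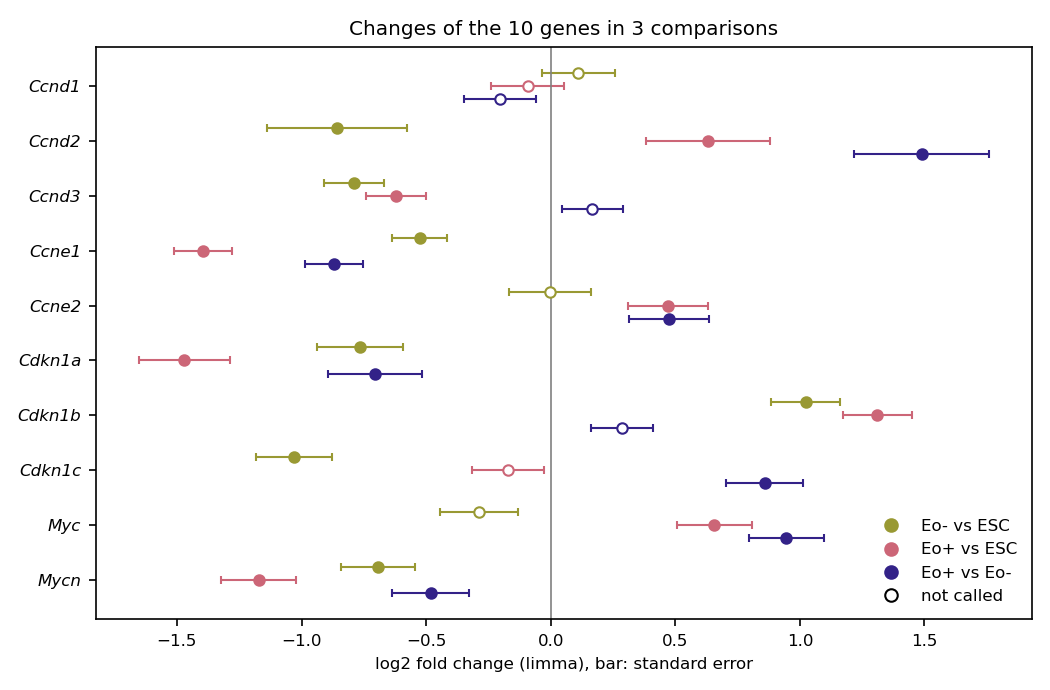
The log2 fold change of each of the 10 genes is plotted on the horizontal axis for Eo- vs ESC, Eo+ vs ESC and Eo+ vs Eo-, with the standard error as bar. Filled points are called by limma and open points are not. Ccne1, Cdkn1a and Mycn lie to the left of 0 in all 3 comparisons, and Ccnd2 lies on opposite sides of 0 in the sorted fractions.

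Locus counts ranged from 648413022 to 837308168 per library, and no library held fewer than 7876 counts of any of the 10 genes, so counting error was small beside the spread between libraries. Levels are given in CPM, that is, counts scaled to a common library size by TMM. The labelled cell types were checked on marker lists. The summed pluripotency markers were 2716 to 3659.7 CPM in ESC, 1158 to 1511 in Eo- and 522 to 808 in Eo+ libraries, and Pou5f1 was still at 514 ± 135 CPM in Eo+ cells. The summed mesendoderm markers were 92.1 to 288, 249 to 510.3 and 1716 to 2969 CPM, so that they were not absent from ESCs. Summed feeder fibroblast markers were 114 to 297 CPM in ESC, with Col1a1 at 63.8 ± 27 CPM, but 30.3 to 40.7 in Eo- and 29.3 to 43.1 CPM in Eo+ libraries, and 10 of 11 tested markers were lower in Eo+ cells and 9 in Eo- cells. The part of feeder RNA in the ESC comparisons below was not tested. Summed neuroectoderm markers were 7.41 to 11.8 CPM in ESC, 1.02 to 1.45 in Eo- and 0.158 to 0.211 in Eo+ libraries, and both tested markers of the 4 listed were lower in each comparison. They moved with the genes that fell from ESC to Eo- to Eo+, and their part in those falls was not tested. Summed embryonic blood markers reached 99.2 CPM in replicate 1 of Eo- and 15.0 CPM in replicate 1 of Eo+, against at most 5.16 CPM in every other library, and visceral endoderm markers, at 1.17 to 2.17 CPM in ESC, 4.15 to 12.6 in Eo- and 8.37 to 50.6 CPM in Eo+ libraries, were highest in replicate 1 of Eo+. The calls of the 10 genes and of other named genes that are lost without the replicates numbered 1 are therefore given with and without them, as are list counts that move by over 1.5 times. In these bulk samples, fewer cells of a type and less RNA per cell cannot be told apart.

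**Figure D2:**
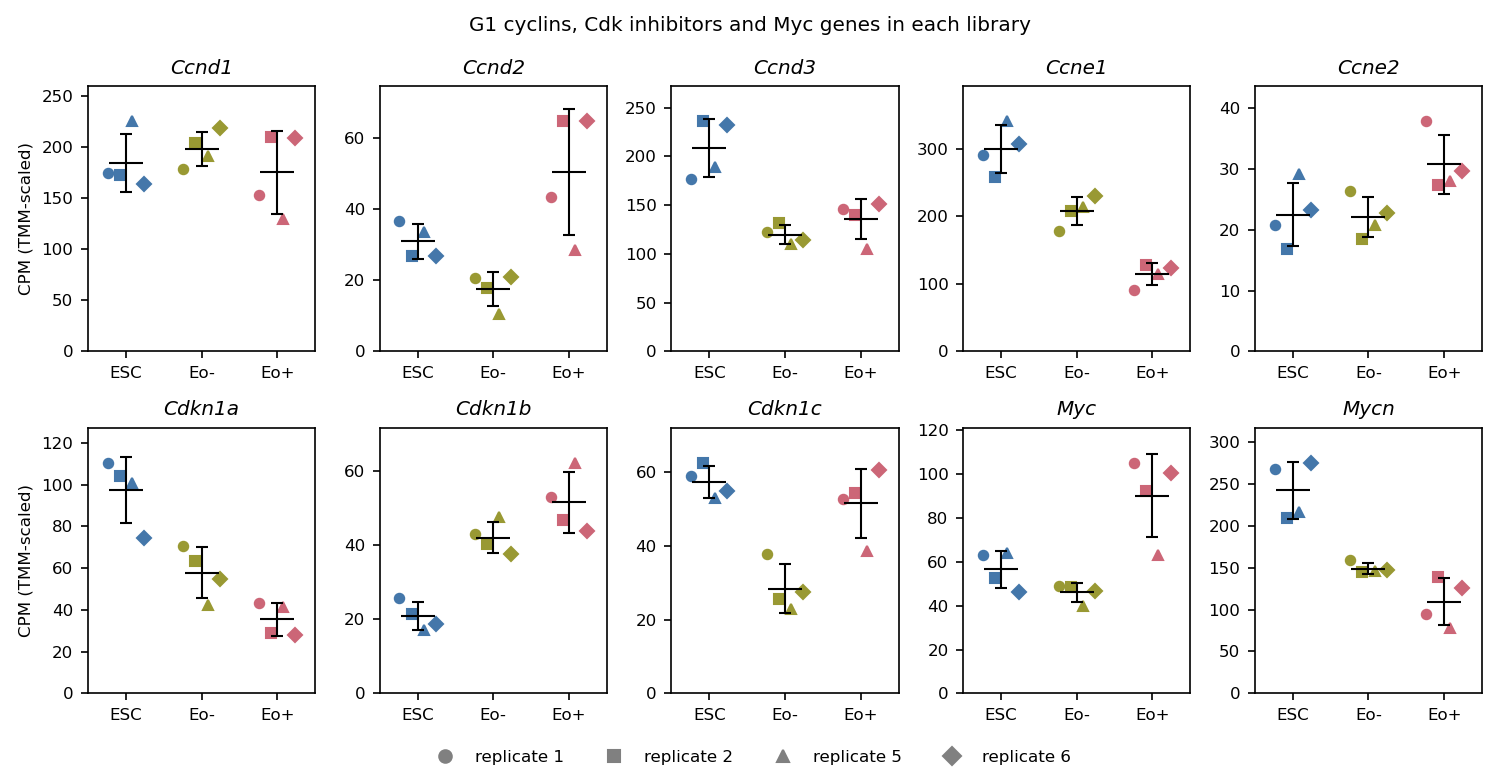
TMM-scaled CPM of each gene is plotted on linear axes starting at 0 for the 12 libraries, with 1 symbol per replicate number and bars for mean ± SD of 4 libraries. Ccne1 and Mycn descend from ESC through Eo- to Eo+ without overlap, while Ccnd2, Cdkn1c and Myc are lower in Eo- than in Eo+ libraries.

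Among the D cyclins, Ccnd2 was the only one called between the sorted fractions, Ccnd3 was lower in both of them than in ESCs, and no change of Ccnd1 was called. Ccnd2 (XLOC_060416, ENSMUSG00000000184, chr6:127125163-127154350, minus strand in mm10) was measured at 36.6, 26.9, 33.5 and 26.8 in ESC, 20.6, 17.8, 10.6 and 20.9 in Eo- and 43.4, 64.6, 28.5 and 64.8 in Eo+ libraries of replicates 1, 2, 5 and 6 (CPM, the order used throughout). Every Eo+ library exceeded every Eo- library, and ESC libraries lay above all Eo- libraries but overlapped Eo+. Means were 30.9 ± 4.91, 17.5 ± 4.78 and 50.3 ± 17.7 CPM in ESC, Eo- and Eo+ cells (SD, n = 4 each), and the log2 fold change was 1.49 ± 0.27 (limma adjusted p = 0.000564) for Eo+ vs Eo-, a 2.81-fold difference found in 4 of 4 same-numbered pairs, and -0.86 ± 0.28 (limma adjusted p = 0.0171) for Eo- vs ESC. In Eo+ vs ESC it was 0.63 ± 0.25 (limma adjusted p = 0.0355). This last call was lost under 3 other settings, with adjusted p-values of 0.0504 to 0.0591, and without replicate 2 or 6 of ESC (0.0877 and 0.0839) or of Eo+ (0.101 and 0.0965), while the log2 fold change ran from 0.49 to 0.89. The Eo- vs ESC call was lost without replicate 5 of Eo- (-0.64, adjusted p = 0.0594) and without the replicates numbered 1 (-0.86, adjusted p = 0.0549). Among the ESC libraries, replicates 1 and 5 held the larger feeder marker sums (297 and 231 against 136 and 114 CPM in replicates 2 and 6). In replicates 1 and 5, pluripotency sums were also lower (2983 and 2716 against 3660 and 3368 CPM). Neuroectoderm sums were higher (11.8 and 9.20 against 7.72 and 7.41 CPM), and visceral endoderm sums lower (1.17 and 1.40 against 1.99 and 2.17 CPM). Ccnd1, Ccnd2 and Myc were higher in replicates 1 and 5 than in replicates 2 and 6, Ccnd3 was lower, and 6 genes overlapped. The share of all loci that separated in this way was not computed, so nothing is read from this count. Its relation to the marker sums was not tested.

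Ccnd3 (XLOC_030540, ENSMUSG00000034165, chr17:47505051-47599691, plus strand) was read at 177, 237, 189 and 232 in ESC, 123, 132, 109.9 and 115 in Eo- and 146, 139.6, 105 and 151 in Eo+ libraries. All ESC libraries exceeded all libraries of both sorted fractions, and the sorted fractions overlapped. In ESC, the lower levels were those of replicates 1 and 5. These replicates also had the larger feeder and neuroectoderm marker sums and the smaller pluripotency and visceral endoderm sums, as given above. Ccnd3 was not tested against these sums. Its means were 209 ± 30.1, 119.8 ± 9.69 and 136 ± 20.6 CPM in ESC, Eo- and Eo+ cells, and it fell 1.73-fold in Eo- and 1.54-fold in Eo+ cells. These log2 fold changes were -0.79 ± 0.12 (limma adjusted p = 7.29e-05) and -0.62 ± 0.12 (limma adjusted p = 0.000351). Between the fractions the difference was 0.17 ± 0.12 (limma adjusted p = 0.279), with a 95% interval of -0.10 to 0.43, and it was called without replicate 5 of Eo+ (0.29, adjusted p = 0.0367). The 3′ end of Ccnd3 overlaps Bysl on the opposite strand, and the authors' counting was strand-aware.

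Ccnd1 (XLOC_066423, ENSMUSG00000070348, chr7:144929893-144943364, minus strand), the D cyclin best known as a target of mitogen signals, stood at 175, 172, 226 and 164 in ESC, 179, 204, 191 and 218 in Eo- and 153, 209, 129.7 and 209 in Eo+ libraries. The groups overlapped in all 3 comparisons, and the spread was widest in Eo+, where replicates 2 and 6 were above replicates 1 and 5. Means were 184 ± 28.1, 198 ± 16.9 and 175 ± 40.3 CPM in ESC, Eo- and Eo+ cells. Its log2 fold changes, -0.09 ± 0.15 (limma adjusted p = 0.585) for Eo+ vs ESC, 0.11 ± 0.15 (limma adjusted p = 0.52) for Eo- vs ESC and -0.20 ± 0.15 (limma adjusted p = 0.267) for Eo+ vs Eo-, had 95% intervals of -0.41 to 0.22, -0.20 to 0.42 and -0.52 to 0.11. In Eo+ vs ESC the sign turned without replicate 5 of either group.

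Levels of different genes were compared as FPKM, which divides by the exon length of the locus. The 3 D cyclins summed to 53.5 ± 3.31 FPKM in ESC, 43.2 ± 2.9 in Eo- and 47 ± 10.1 in Eo+ libraries. Ccnd2 made up 9.0% ± 1.75 of that sum in ESC, 6.23% ± 1.57 in Eo- and 16.2% ± 2.56 in Eo+ cells, and its share in every Eo+ library exceeded that in all others. Ccnd1 held 46.6% ± 5.21, 62.1% ± 2.96 and 50.5% ± 2.41, and Ccnd3 44.4% ± 6.26, 31.6% ± 2.36 and 33.3% ± 3.91. The order of these last genes depends on the length used, since the 22 assembled Ccnd3 transcripts span 8775 bp of exon while the longest has 3858 bp. With the longest transcript as length, Ccnd3 led in each group, at 63.3%, 50.1% and 52.1%.

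**Figure D3:**
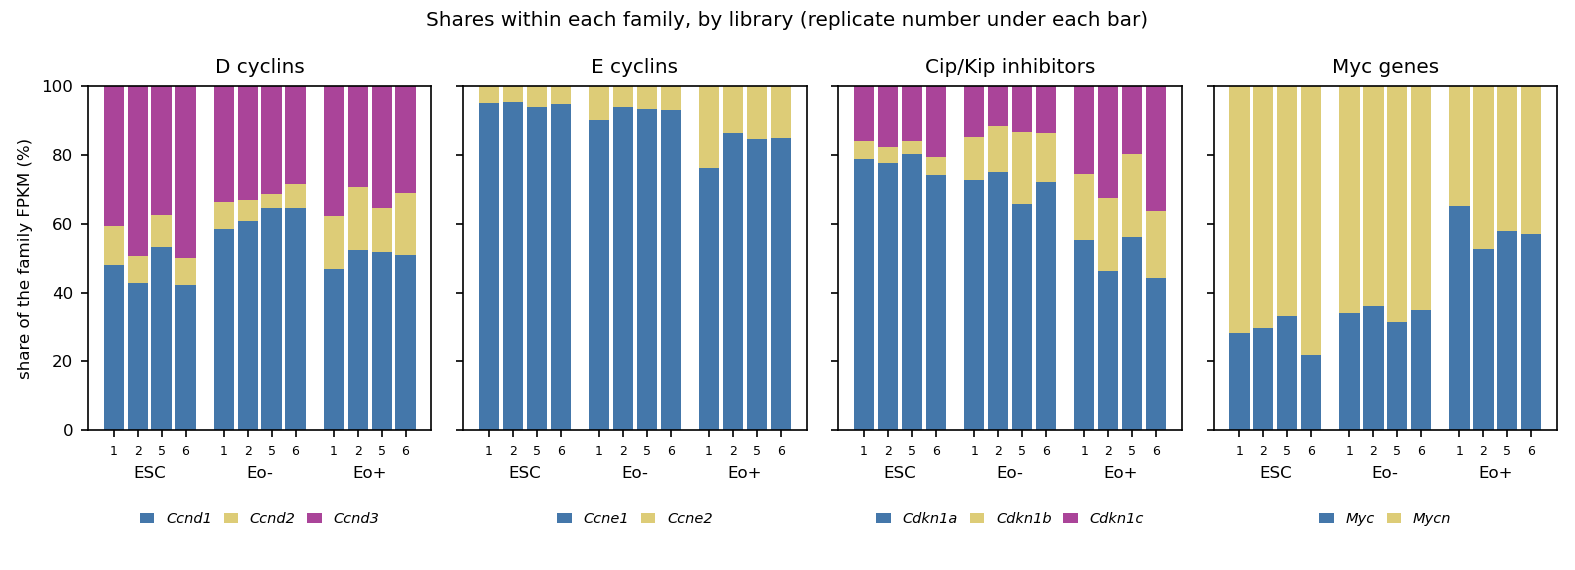
Stacked bars give, for each of the 12 libraries, the share (%) of each gene in the summed FPKM of its family, with the replicate number under each bar. The Myc genes shown are Myc and Mycn, without Mycl. Ccnd2, Ccne2, Cdkn1b and Myc take larger shares in Eo+ than in ESC libraries.

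The E cyclins moved in opposite directions in Eo+ cells. Ccne1 (XLOC_064409, ENSMUSG00000002068, chr7:38097984-38107610, minus strand), the main E cyclin of these cells, was found at 291, 258, 342 and 308 in ESC, 179, 209, 214 and 229.6 in Eo- and 90.7, 128, 115 and 124 in Eo+ libraries. The 3 groups formed separate ranges, highest in ESC and lowest in Eo+. Means were 299.5 ± 35, 208 ± 21.1 and 114 ± 16.7 CPM in ESC, Eo- and Eo+ cells, and Eo+ cells were 2.63-fold lower than ESCs and 1.83-fold lower than Eo- cells. The log2 fold changes were -1.40 ± 0.12 (limma adjusted p = 1.32e-07), -0.53 ± 0.11 (limma adjusted p = 0.00105) and -0.87 ± 0.12 (limma adjusted p = 5.07e-05) for Eo+ vs ESC, Eo- vs ESC and Eo+ vs Eo-, and all held without any 1 library.

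Ccne2 (XLOC_047266, ENSMUSG00000028212, chr4:11191351-11211890, plus strand) was at 20.7, 16.8, 29.1 and 23.2 in ESC, 26.4, 18.5, 20.7 and 22.8 in Eo- and 37.9, 27.3, 28 and 29.7 in Eo+ libraries. Eo+ libraries were above all Eo- libraries but overlapped ESC, where replicate 5 was the highest. Its means were 22.5 ± 5.15, 22.1 ± 3.35 and 30.7 ± 4.89 CPM in ESC, Eo- and Eo+ cells. It rose by 0.47 ± 0.16 (limma adjusted p = 0.0169) for Eo+ vs ESC and by 0.47 ± 0.16 (limma adjusted p = 0.0246) for Eo+ vs Eo-, where it was higher in 4 of 4 same-numbered pairs, whereas Eo- vs ESC gave -0.0036 ± 0.17 (limma adjusted p = 0.986), with a 95% interval of -0.36 to 0.35 and a sign that depended on the setting. The Eo+ vs ESC call was lost without replicate 2 of ESC (adjusted p = 0.0639), without replicate 1 of Eo+ (0.0525), which had the highest Ccne2 level of all, and without the replicates numbered 1 (0.0919). The Eo+ vs Eo- call was lost without replicate 2 or 5 of Eo- (0.0787 and 0.0598) or replicate 1 of Eo+ (0.0743). Ints8 overlaps Ccne2 on the opposite strand, and an antisense locus without a gene name overlaps its 5′ end.

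The summed FPKM of both E cyclins declined from 115 ± 14.2 in ESC to 81.8 ± 7.24 in Eo- and 50.1 ± 4.88 in Eo+ libraries. The ratio of Ccne1 to Ccne2 was 18.3 ± 2.01 in ESC, 12.9 ± 2.63 in Eo- and 5.16 ± 1.35 in Eo+ libraries, so that Ccne1 remained the more abundant E cyclin in each group.

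The 3 Cip/Kip inhibitors each followed a different pattern, with Cdkn1a lower and Cdkn1b higher in both sorted fractions than in ESCs and Cdkn1c lower in Eo- cells. Cdkn1a (XLOC_030050, ENSMUSG00000023067, chr17:29090979-29100722, plus strand) encodes p21, a target of p53, and has the p53 motif match shown above in its upstream window. It measured 110.5, 104, 101 and 74.4 in ESC, 70.5, 63.4, 42.2 and 54.5 in Eo- and 43.4, 29, 41.3 and 28 in Eo+ libraries. All ESC libraries were above all sorted libraries, while replicate 5 of Eo- fell below replicate 1 of Eo+. Means were 97.4 ± 15.9, 57.7 ± 12.2 and 35.4 ± 8.04 CPM in ESC, Eo- and Eo+ cells, a 2.77-fold lower level in Eo+ cells and a 1.7-fold lower level in Eo- cells than in ESCs. Log2 fold changes were -1.47 ± 0.18 (limma adjusted p = 6.72e-06) for Eo+ vs ESC, -0.77 ± 0.17 (limma adjusted p = 0.00161) for Eo- vs ESC and -0.70 ± 0.19 (limma adjusted p = 0.00746) for Eo+ vs Eo-. In ESC, the level was lowest in replicate 6, and the range of replicates 1 and 5 overlapped that of replicates 2 and 6. Its relation to the marker sums was not tested.

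Cdkn1b (XLOC_058501, ENSMUSG00000003031, chr6:134919890-134928290, plus strand), which encodes p27, was at 25.8, 21.6, 17.1 and 18.7 in ESC, 43, 40.3, 47.6 and 37.6 in Eo- and 53.2, 46.9, 62.4 and 44 in Eo+ libraries. Every library of both fractions exceeded every ESC library. With means of 20.8 ± 3.79, 42.1 ± 4.26 and 51.6 ± 8.13 CPM in ESC, Eo- and Eo+ cells, it was 2.48-fold higher in Eo+ and 2.03-fold higher in Eo- cells than in ESCs, at 1.31 ± 0.14 (limma adjusted p = 1.30e-06) and 1.02 ± 0.14 (limma adjusted p = 2.73e-05). It was the only one of the 10 genes called higher in Eo- vs ESC. Between the fractions the difference was 0.29 ± 0.12 (limma adjusted p = 0.072), in 4 of 4 same-numbered pairs higher in Eo+. With the replicate number as a block, which pairs these fractions, the same difference was 0.29 and was called (adjusted p = 0.0437 over all 12 libraries, and 0.0025 with only both fractions in the fit, a setting added after seeing the data). It was also called with loci of every class in the fit (adjusted p = 0.0477) and without replicate 6 of Eo+ (0.0378), while the other 19 settings gave no call, with adjusted p-values up to 0.188.

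Cdkn1c (XLOC_066392, ENSMUSG00000037664, chr7:143458336-143466466, minus strand), an imprinted gene encoding p57, stood at 59, 62.7, 53.1 and 54.9 in ESC, 37.9, 25.7, 22.8 and 27.4 in Eo- and 52.9, 54.3, 38.6 and 60.8 in Eo+ libraries. Eo- libraries were below all others, and ESC and Eo+ libraries overlapped. Means were 57.4 ± 4.28, 28.5 ± 6.58 and 51.6 ± 9.35 CPM in ESC, Eo- and Eo+ cells. The level was 2.04-fold lower in Eo- cells than in ESCs and 1.81-fold higher in Eo+ than in Eo- cells, at -1.03 ± 0.15 (limma adjusted p = 6.04e-05) and 0.86 ± 0.16 (limma adjusted p = 0.000509). In Eo+ vs ESC the log2 fold change was -0.17 ± 0.14 (limma adjusted p = 0.302) with a 95% interval of -0.48 to 0.14.

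Within the family, whose summed FPKM was 56.2 ± 7.82 in ESC, 36.2 ± 6.23 in Eo- and 31.3 ± 3.46 in Eo+ libraries, Cdkn1a held 77.7% ± 2.64, 71.4% ± 4.02 and 50.4% ± 6.16. Cdkn1b held 4.73% ± 0.663, 15.3% ± 3.84 and 21% ± 2.18, and Cdkn1c 17.6% ± 2.24, 13.3% ± 1.37 and 28.5% ± 7.33. The ratio of Cdkn1a to Cdkn1b FPKM went from 16.7 ± 2.96 in ESC to 4.89 ± 1.21 in Eo- and 2.41 ± 0.317 in Eo+ libraries, in 3 ranges that did not overlap.

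Of the Myc genes, Myc was higher in Eo+ cells and Mycn fell from ESC to Eo- to Eo+. Myc (XLOC_024750, ENSMUSG00000022346, chr15:61985341-61990374, plus strand) was at 63, 52.8, 64 and 46.1 in ESC, 48.9, 48.7, 39.9 and 46.8 in Eo- and 105, 92, 63.3 and 100.2 in Eo+ libraries. Eo+ libraries exceeded all Eo- libraries, but replicate 5 of Eo+, at 63.3 CPM, lay within the ESC range. Means were 56.5 ± 8.61, 46.1 ± 4.21 and 90.2 ± 18.7 CPM in ESC, Eo- and Eo+ cells. The level was 1.93-fold higher in Eo+ than in Eo- cells and 1.58-fold higher than in ESCs, with 0.95 ± 0.15 (limma adjusted p = 0.00021) and 0.66 ± 0.15 (limma adjusted p = 0.00133). In Eo- vs ESC it was -0.29 ± 0.16 (limma adjusted p = 0.123), which became a call with only those 2 groups in the fit (adjusted p = 0.0449) or without replicate 5 of Eo+ (0.0331). ESC replicates 1 and 5 held more Myc than replicates 2 and 6. These pairs also differed in the feeder, neuroectoderm, pluripotency and visceral endoderm marker sums given above.

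Mycn (XLOC_015622, ENSMUSG00000037169, chr12:12936077-12943238, minus strand) was at 268, 209, 216 and 275 in ESC, 158, 144, 146 and 147 in Eo- and 94.6, 139, 77.4 and 126 in Eo+ libraries. The groups did not overlap, although replicate 2 of Eo+ came close to the lowest Eo- library. Means were 242 ± 34.4, 149 ± 6.61 and 109 ± 28.4 CPM in ESC, Eo- and Eo+ cells. On the log2 scale Mycn changed by -1.17 ± 0.15 (limma adjusted p = 9.56e-06) for Eo+ vs ESC and -0.69 ± 0.15 (limma adjusted p = 0.00115) for Eo- vs ESC. The Eo+ vs Eo- difference, -0.48 ± 0.15 (limma adjusted p = 0.0198), was lower in Eo+ in 4 of 4 same-numbered pairs. It was no longer called without replicate 1 of Eo- (adjusted p = 0.0506), without replicate 1 or 5 of Eo+ (0.0640 and 0.0637, the latter at -0.32), or without all replicates numbered 1 (-0.38, 0.124).

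Myc and Mycn together summed to 72.6 ± 7.2 FPKM in ESC, 48.7 ± 2.46 in Eo- and 56.2 ± 11.3 in Eo+ libraries. Mycl, the third gene of this family, was not part of these sums and shares. It is given with the Myc network below. Mycn was 2.62 ± 0.666 times as abundant as Myc in ESC and 1.94 ± 0.175 times in Eo- libraries, but 0.731 ± 0.15 times in Eo+ libraries. The share of Myc was 28.3% ± 4.71, 34.1% ± 1.97 and 58.1% ± 5.18, and it exceeded that of Mycn in each Eo+ library and in no other.

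The other genes of the pathway were read from 10 lists with 107 genes, of which 105 had a tested locus. In Eo+ vs ESC, 23 were higher and 53 lower, Eo- vs ESC gave 21 and 47, and Eo+ vs Eo- gave 20 and 24. Of all loci, 35.8% were higher and 36.1% lower in the first of these comparisons, 30.9% and 31.3% in the second and 23.0% and 24.7% in the third, and with 4 to 14 tested genes a list the counts below are descriptions. Changes named from the lists are log2 fold changes ± SE, all called by limma at an adjusted p of at most 0.05. Without the replicates numbered 1, a setting added after seeing the data, 70, 57 and 36 of the list genes were called. Of all loci, 33.9% were then higher and 33.3% lower in Eo+ vs ESC, with 27.7% and 28.2% for Eo- vs ESC and 20.1% and 21.3% for Eo+ vs Eo-. With all libraries, the median log2 fold change of the list genes was -0.19, -0.11 and -0.06, where the median of all tested loci was 0.0025, 0.015 and -0.015.

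Genes of p53 and its targets, apart from Cdkn1a, were mostly lower in the sorted cells. In Eo+ vs ESC, 12 of 14 were lower and 1 higher, Eo- vs ESC gave 13 and 1, and Eo+ vs Eo- gave 5 and 2, where 36.1%, 31.3% and 24.7% of all loci were lower. The list's median was -0.96, -0.64 and -0.21. Plk2, a polo-like kinase, was the gene with the largest fall against ESC, at 69.5 ± 13.4 in ESC, 18.7 ± 5.93 in Eo- and 16.5 ± 4.32 in Eo+ cells (CPM), a change of -2.09 ± 0.22 for Eo+ vs ESC and -1.91 ± 0.21 for Eo- vs ESC. Pmaip1, which encodes the pro-apoptotic protein Noxa, went the other way in each comparison, with 30.8 ± 6.02 in ESC, 71.5 ± 7.55 in Eo- and 125 ± 45.6 in Eo+ cells (CPM), and 1.97 ± 0.23, 1.22 ± 0.24 and 0.74 ± 0.21. Phlda3, an inhibitor of Akt, had the largest fall in Eo+ vs Eo- (-0.77 ± 0.14).

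Of the INK4 inhibitors, 3 of 4 were lower in Eo+ and 4 of 4 in Eo- cells than in ESCs, beside 36.1% and 31.3% of all loci. Without the replicates numbered 1, 2 of 4 were lower in each. Cdkn2a, which encodes p16 and Arf, was at 7.85 ± 1.61 in ESC, 1.89 ± 0.244 in Eo- and 1.35 ± 0.819 in Eo+ cells (CPM), a change of -2.77 ± 0.35 for Eo+ vs ESC. Cdkn2b was at 4.27 ± 1.68 in ESC, 0.909 ± 0.112 in Eo- and 2.21 ± 0.871 in Eo+ cells (CPM), a change of -2.15 ± 0.35 for Eo- vs ESC and 1.20 ± 0.37 for Eo+ vs Eo-. Feeder marker sums were lower in the sorted cells as well, and their part in these falls and those of the p53 list was not tested. Of the 6 G1 kinases and pocket proteins, Cdk4 rose by 0.39 ± 0.07 in Eo+ and 0.24 ± 0.07 in Eo- cells against ESCs, whereas the pocket protein gene Rbl2 fell to 2.83 ± 0.21 CPM in Eo+ from 6.55 ± 1.68 CPM in ESC cells (-1.18 ± 0.17), and changed by -1.05 ± 0.17 for Eo- vs ESC. In Eo+ vs Eo-, Cdk6 fell (-0.30 ± 0.11) and Rbl1 rose (0.21 ± 0.08), but without the replicates numbered 1 neither was called (-0.26 and 0.23, adjusted p = 0.0731 and 0.0791), nor any other gene of this list.

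Of 10 E2F and DP genes, 4 were higher and 4 lower in Eo+ vs ESC, near the 35.8% and 36.1% of all loci. Eo- vs ESC gave 6 and 2 (30.9% and 31.3% of all loci), and Eo+ vs Eo- gave 3 and 4 (23.0% and 24.7%). Without the replicates numbered 1, 4 were higher and 1 lower for Eo- vs ESC, and 3 and 2 for Eo+ vs Eo-. E2f5, a factor that works with pocket proteins in repression, rose most in each comparison and stood at 35.4 ± 2.99 in ESC, 57.8 ± 3.81 in Eo- and 92.5 ± 1.47 in Eo+ cells (CPM). E2f8, a repressor, fell most against ESC (-0.99 ± 0.08 in Eo+ and -0.80 ± 0.08 in Eo- cells), and E2f2, an activator, fell most in Eo+ vs Eo- (-0.83 ± 0.13). Replication genes transcribed at G1/S were lower in Eo+ than in ESC cells at 10 of 14 genes tested and higher at 1, and lower in Eo+ than in Eo- cells at 7 with none higher, while in Eo- vs ESC 2 were higher and 2 lower. The shares of all loci that were lower were 36.1%, 24.7% and 31.3% in this order. Ung, the uracil-DNA glycosylase gene, led the falls, at 121 ± 8.46 in ESC, 96.2 ± 9.05 in Eo- and 58.3 ± 4.15 in Eo+ cells (CPM). Tyms, the thymidylate synthase gene, rose by 0.16 ± 0.06 for Eo+ vs ESC, a call lost without the replicates numbered 1 (0.12, adjusted p = 0.121), when 7 genes were lower and none higher in that comparison, and 2 were higher and 1 lower for Eo- vs ESC. In Eo+ cells this list had a median of -0.21 against ESC and -0.24 against Eo- cells.

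Of the S, G2 and M genes, 2 of 12 were higher and 4 lower in Eo+ vs ESC, 1 and 7 for Eo- vs ESC, and 3 and 1 for Eo+ vs Eo-, where the shares of all loci that were lower were 36.1%, 31.3% and 24.7%. Without the replicates numbered 1, 3 were higher and none lower for Eo+ vs Eo-. Mki67, a marker of cycling cells, rose by 0.49 ± 0.06 in Eo+ and by 0.28 ± 0.06 in Eo- cells against ESCs. Ccnb1, a cyclin of mitosis, fell most in Eo- vs ESC (-0.63 ± 0.08), and Cdk1, its kinase, rose in Eo+ vs Eo- (0.32 ± 0.08). A list of other cyclins, with the Cdk-binding Cables genes, had 8 of 9 genes higher in Eo+ vs ESC, beside 35.8% of all loci. In each of the remaining comparisons 6 of 9 were higher, beside 30.9% and 23.0% of all loci, and none was lower in any. Cables1 stood at 2.53 ± 0.404 in ESC, 10.9 ± 0.656 in Eo- and 10.6 ± 2.63 in Eo+ cells (CPM), and Ccnjl, whose locus also carries a second gene name, at 7.22 ± 1.63 in ESC, 20.2 ± 1.82 in Eo- and 34.1 ± 1.8 in Eo+ cells (CPM).

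In the Myc network, Mycl, the third gene of the Myc family, was higher in both fractions, at 21.8 ± 5.04 in ESC, 63.8 ± 8.27 in Eo- and 109 ± 13.5 in Eo+ cells (CPM), a change of 2.34 ± 0.15 for Eo+ vs ESC and 1.57 ± 0.15 for Eo- vs ESC. Mnt, a Max partner that opposes Myc, was lower (-1.17 ± 0.12 and -0.97 ± 0.12), whereas Mxd4, another such partner, had the largest rise in Eo+ vs Eo- (1.19 ± 0.15), and Mxd3 the largest fall (-0.51 ± 0.13). In all, 3 of 10 genes of the network were higher and 5 lower in Eo+ vs ESC, 2 and 5 for Eo- vs ESC, and 3 and 1 for Eo+ vs Eo-, beside 35.8% of all loci higher and 36.1% lower, 30.9% and 31.3%, and 23.0% and 24.7%. Genes of ribosome and nucleotide production known as Myc targets were lower at 10 of 14 and higher at 1 in Eo+ vs ESC, at 9 and 1 in Eo- vs ESC, and at 5 and 0 in Eo+ vs Eo-, where 36.1%, 31.3% and 24.7% of all loci were lower. Srm, the spermidine synthase gene, whose locus carries a second gene name, was at 438 ± 32.7 in ESC, 276 ± 25.9 in Eo- and 221 ± 32.9 in Eo+ cells (CPM). Ldha, the lactate dehydrogenase gene, was the exception, rising by 0.54 ± 0.13 in Eo+ and 0.35 ± 0.13 in Eo- cells against ESCs, the latter not called without the replicates numbered 1 (0.31, adjusted p = 0.0511). Of the genes for turnover and activation of G1 regulators, 1 of 12 was higher and 3 were lower against ESC in each fraction, and 1 was higher in Eo+ vs Eo-, all below the shares of all loci. Without the replicates numbered 1, 2 were higher and 2 lower for Eo+ vs ESC, and none was higher and 2 were lower for Eo- vs ESC. Fbxw7, the ubiquitin ligase subunit that marks cyclin E and Myc for degradation, was lower (-0.52 ± 0.10 in Eo+ and -0.40 ± 0.10 in Eo- cells).

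**Figure D4:**
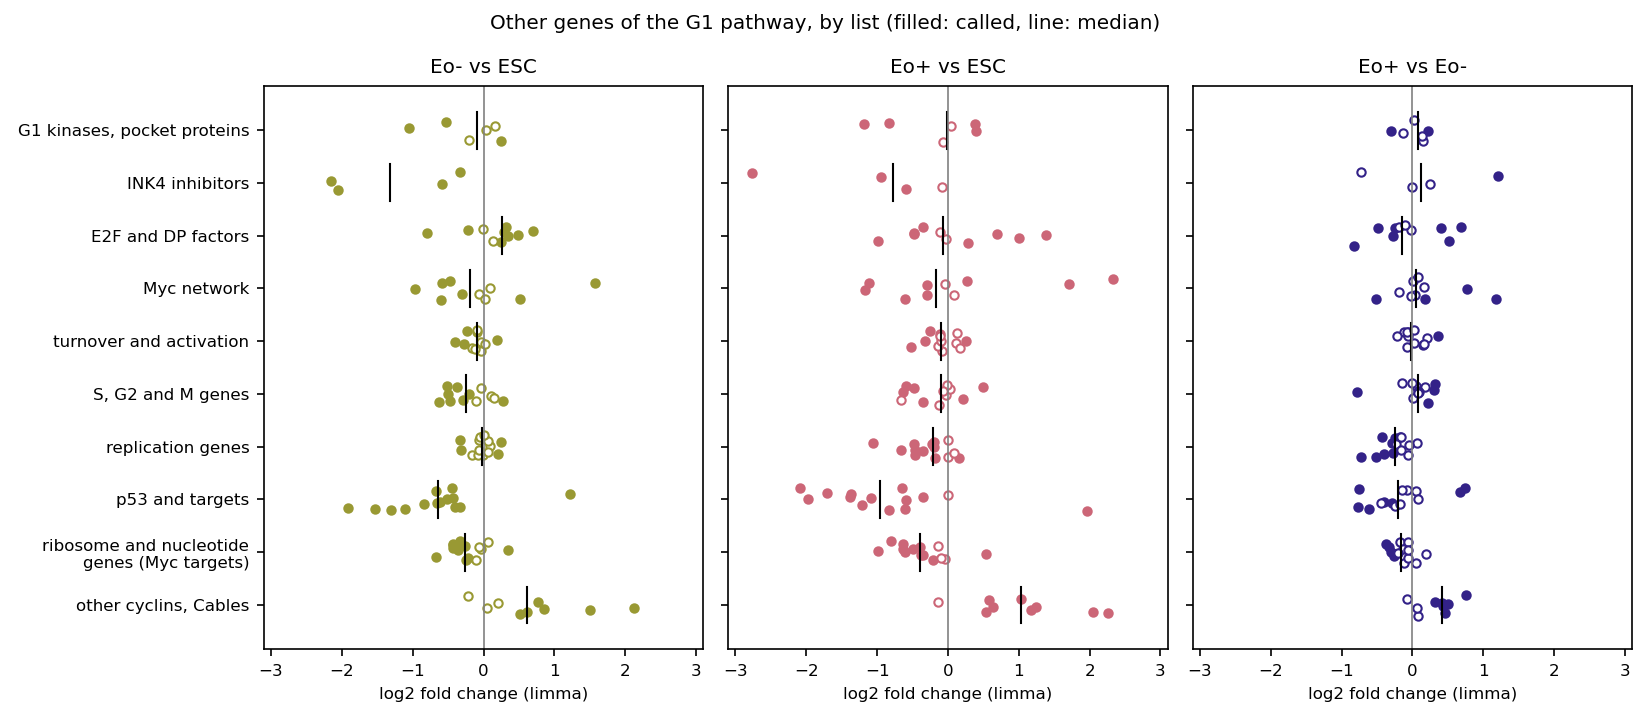
Each point is 1 gene of a pathway list, placed by its log2 fold change in Eo- vs ESC, Eo+ vs ESC and Eo+ vs Eo- (panels from left to right), filled where limma called it, with a vertical line at the list's median. The p53 list lies mostly left of 0 against ESC, with Pmaip1 as the point on the right, and the other cyclins lie mostly to the right.

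Within 50 kb of the 10 genes lay 24 tested loci, of which 19 were called in at least 1 comparison, as were 83.3% of all loci, and none lay near Ccne1 or Mycn. Phlda2, an imprinted growth regulator 35.1 kb from Cdkn1c, was at 88.2 ± 16.6, 32.8 ± 4.16 and 149.6 ± 65.2 CPM in ESC, Eo- and Eo+ cells. Like Cdkn1c it was lowest in Eo- cells, with -1.41 ± 0.33 (limma adjusted p = 0.00189) for Eo- vs ESC and 2.05 ± 0.32 (limma adjusted p = 0.000162) for Eo+ vs Eo-. The locus of Pvt1, a long noncoding RNA 42.0 kb downstream of Myc that also carries small predicted genes, was at 13.5 ± 1.92, 6.69 ± 0.462 and 5.84 ± 0.75 CPM in ESC, Eo- and Eo+ cells. It fell in Eo+ vs ESC, with -1.22 ± 0.13 (limma adjusted p = 1.32e-06), and in Eo- vs ESC, with -1.02 ± 0.12 (limma adjusted p = 1.02e-05). Myc rose in the former and was not called in the latter. Between the fractions the Pvt1 locus changed by -0.20 ± 0.14 (limma adjusted p = 0.255). Trp53cor1, a long noncoding RNA known to be induced by p53, lies 12 kb upstream of Cdkn1a on the opposite strand and was lower in Eo+ than in ESC cells, with -0.85 ± 0.26 (limma adjusted p = 0.00979) and a level of only 0.523 CPM in ESC. Fgf15, a growth factor gene 28.9 kb from Ccnd1, rose in Eo+ vs ESC, in which no change of Ccnd1 was called, with 1.45 ± 0.28 (limma adjusted p = 0.000323). Near Ccnd2, 9630033F20Rik fell in both fractions, from 70.9 CPM in ESC to 29.2 in Eo- and 23.1 in Eo+ cells, with -1.62 ± 0.08 (limma adjusted p = 1.06e-09) against ESCs in the latter.

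For the most highly counted gene of each family, the 3 protein-coding genes with the most similar log2 CPM over the 12 libraries were sought among 12384 genes. This likeness (Pearson's r) is a description, and the points share their libraries and groups. For Ccne1 these were Msrb2 (r = 0.99), Sycp1 (0.98) and Wt1 (0.98), and for Cdkn1a they were Plekhf2, Mcam and Jup (each 0.98). Mycn was most like Ndufs1 (0.98), Paip2b (0.98) and Dkc1 (0.97). Ccnd1, which differed little between groups, had weaker matches in Trmt61a (0.89), the joined locus of Rab26 and Traf7 (0.86) and Thoc3 (0.86).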

How the data were processed

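Poly(A) RNA of 12 libraries was sequenced as paired reads. According to the study's methods and the labels, the authors mapped reads to mm10 with STAR, merged Cufflinks 2.2.1 assemblies with Ensembl genes, and counted reads per locus with HTSeq 0.6.1 in strand-aware union mode. The deposited values used here are these raw counts, without scaling. A deposited normalized table was not used.

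Of 80012 counted loci, 357 had no position in the deposited annotation and took 2.01% to 2.93% of counts. Classes came from GENCODE biotypes on the same build. Tested loci were protein-coding (14216), annotated lncRNA (982) or non-annotated lncRNA (2713, at least 2 exons and 200 bp) with mean FPKM over 0.1 in at least 1 group. FPKM used the summed exon length. HTSeq also set aside 22.4% to 26.2% of alignments as not unique, which entered nothing here.

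Counts were transformed by voom with TMM scaling (edgeR 4.0.16) and tested with limma 3.58.1 in R 4.3.3, with 1 mean per group over all 12 libraries and two-sided moderated tests. The fitting script was tested on simulated data. The alternatives covered scaling, filters, loci fitted, samples fitted, edgeR's quasi-likelihood test, DESeq2 1.42.0, the replicate block and leaving out each library. Same-numbered Eo+ and Eo- libraries deviated together (correlations 0.31 to 0.63 across loci, against -0.41 to 0.28 for unlike numbers), so these numbers were taken to pair them. Same-numbered ESC and Eo- libraries correlated at 0.25 and 0.43 in replicates 1 and 2, but at -0.13 and -0.02 in replicates 5 and 6. For ESC and Eo+ the range was -0.10 to 0.14, so whether ESC numbers pair with the others is not settled. The 10 genes and the lists were chosen with earlier results of these data known. All 10 were named. From each pathway list, the called genes with the largest rise and largest fall per comparison could be named, as could called loci within 50 kb, and likeness was ranked for the most counted gene of each family among genes with a mean of at least 1 CPM.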

Additional observations from a re-analysis of the deposited data

Results flagged for a closer look

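Mycn in replicate 1 of Eo- stood at 158.5 CPM, while the other Eo- libraries held 144.1 to 146.6 CPM. Its gap to the nearest library was 0.832 of the range of that group, above Dixon's 95% limit for 4 libraries. This was 1 of 30 groups of libraries examined, and chance flags about 1 in 20.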

How the results depend on the processing

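Of 30 fold changes of the 10 genes, 20 kept direction and side of the threshold under every alternative run. The sign turned for Ccnd1 in Eo+ vs ESC without replicate 5 of ESC (0.0099) or of Eo+ (0.0523, in a leave-one-out range from -0.18), and for Ccne2 in Eo- vs ESC with library totals (0.0685), without a low-count filter (0.0535), without replicate 5 or 6 of ESC (0.134 and 0.0193) and without replicate 2 or 5 of Eo- (0.0787 and 0.0228, in a leave-one-out range of -0.13 to 0.13), none of them called. Also requiring a 2-fold change left 4, 2 and 1 of the 10 genes in Eo+ vs ESC, Eo- vs ESC and Eo+ vs Eo-. It left 22, 11 and 2 of the 105 tested pathway genes, where 38.1%, 28.3% and 21.1% of all loci passed. Leaving out 1 library gave 6 to 8, 6 to 8 and 5 to 8 of the 10 genes and 70 to 75, 61 to 67 and 35 to 46 pathway genes. With the longest transcript as length, shares in ESC, Eo- and Eo+ were 30.8%, 45.4% and 36.4% for Ccnd1, 5.86%, 4.47% and 11.5% for Ccnd2 and 63.3%, 50.1% and 52.1% for Ccnd3, and 5.70% and 24.9% for Cdkn1b in ESC and Eo+ and 11.4% for Cdkn1c in Eo-. The replicate block, which pairs Eo+ with Eo-, gave 8, 7 and 8 of the 10 genes and 76, 71 and 53 pathway genes, and with only both fractions in the fit 8 and 58. It changed no call of the 10 genes other than that of Cdkn1b in Eo+ vs Eo- (0.29, adjusted p = 0.0437). The cause of the calls lost or gained with single libraries was not tested.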

Other observations

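Eo+ libraries fell apart in a similar way at several of the genes. Replicates 1 and 5 held less Ccnd1, Ccnd2, Ccne1, Cdkn1c and Mycn, and more Cdkn1a and Cdkn1b, than replicates 2 and 6. Ccnd3, Ccne2 and Myc overlapped. In replicates 1 and 5, summed mesendoderm markers were 1716 and 1801 CPM against 2969 and 2555 CPM in replicates 2 and 6. Visceral endoderm markers were 50.6 and 31.2 CPM against 8.37 and 15.0 CPM, and embryonic blood markers 15.0 and 4.67 CPM against 1.14 and 1.71 CPM. Feeder, pluripotency and neuroectoderm sums overlapped. ESC libraries split by the same numbers at several marker sums. The share of all loci that separated in this way was not computed, so nothing particular to these genes is read from it. This arrangement was seen after the values were known, and its relation to these markers was not tested.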
